A study of Homo sapiens with 10 samples.

Results

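The genes of 6 transcription factors, JUN, JUNB, FOS, FOSL1, FOSL2 and ATF3, were examined for the chromatin proteins BRD9 and SMARCB1 in CUT&RUN peak lists. All peaks within 50 kb of either end of a gene were taken, on the hg19 coordinates of the genes. They numbered 499 of the 543439 peaks in all 8 lists. In CUT&RUN an antibody tethers a nuclease to its target protein, and the DNA released around the target is sequenced. All samples were G401 cells, a rhabdoid tumour line with the genotype SMARCB1(-/-), in which doxycycline induced either GFP, as the control, or SMARCB1. BRD9 was mapped with a rabbit polyclonal antibody in 3 samples after GFP induction and in 3 after SMARCB1 induction. SMARCB1 was mapped with a rabbit monoclonal antibody in 2 samples after its own induction. A SMARCB1 sample after GFP induction and an IgG sample after SMARCB1 induction, 2 of the 10 samples of the series, were not analysed here. The dose and duration of doxycycline are not given in the sources used here, and all samples come from a single tumour line. Nothing in the labels says that the replicates came from separate cultures, so p-values measure only the spread between these samples, which may be technical.

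AP-1 is a family of dimeric leucine zipper factors built from JUN proteins (JUN, JUNB) and FOS proteins (FOS, FOSL1, FOSL2). The genes are induced rapidly by growth factors, serum and stress, and FOS is the textbook immediate early gene. ATF3 is a stress-induced member of the ATF/CREB family that can pair with JUN proteins and binds sites resembling the cyclic AMP response element. SMARCB1 is a core subunit of the canonical SWI/SNF (BAF) and PBAF chromatin remodellers, and its loss defines rhabdoid tumours. BRD9 is a bromodomain subunit of the non-canonical form of the complex, which lacks SMARCB1.

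On hg19 JUN lies at chr1:59246463-59249785 on the minus strand and JUNB at chr19:12902310-12904125 on the plus strand. FOS lies at chr14:75745481-75748937 and FOSL2 at chr2:28615779-28640179, both on the plus strand. FOSL1 lies at chr11:65659520-65668044 on the minus strand, and ATF3 at chr1:212738676-212794119 on the plus strand. The RefSeq promoter table held 5 of the 6 genes. The 250 bases before the gene start are shown for the genes whose windows differed in BRD9-covered length without overlap between the groups, as described below. The sequences are on build GRCh38.p14 and written along the gene's strand. Capitals mark TGACNTCA, a site resembling the cyclic AMP response element, or TATAAA, the TATA box.
FOS promoter, chr14:75278578-75278827, plus strand: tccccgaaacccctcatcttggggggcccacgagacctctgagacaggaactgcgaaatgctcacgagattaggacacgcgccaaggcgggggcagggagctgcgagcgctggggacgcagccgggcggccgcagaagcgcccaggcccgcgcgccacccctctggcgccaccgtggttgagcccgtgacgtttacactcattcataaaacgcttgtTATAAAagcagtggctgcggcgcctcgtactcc
FOSL2 promoter, chr2:28392608-28392857, plus strand: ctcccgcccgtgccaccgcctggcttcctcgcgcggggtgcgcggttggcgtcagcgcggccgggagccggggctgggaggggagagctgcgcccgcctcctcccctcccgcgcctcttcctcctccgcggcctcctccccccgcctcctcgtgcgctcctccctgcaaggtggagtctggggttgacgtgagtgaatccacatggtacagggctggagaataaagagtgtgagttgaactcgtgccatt
JUN promoter, chr1:58784048-58784297, minus strand: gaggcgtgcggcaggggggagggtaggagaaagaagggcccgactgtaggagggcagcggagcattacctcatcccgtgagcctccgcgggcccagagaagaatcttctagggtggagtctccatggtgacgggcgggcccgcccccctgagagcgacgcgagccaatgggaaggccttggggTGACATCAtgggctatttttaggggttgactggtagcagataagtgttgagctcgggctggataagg
ATF3 promoter at the first of its 2 table entries, chr1:212565157-212565406, plus strand: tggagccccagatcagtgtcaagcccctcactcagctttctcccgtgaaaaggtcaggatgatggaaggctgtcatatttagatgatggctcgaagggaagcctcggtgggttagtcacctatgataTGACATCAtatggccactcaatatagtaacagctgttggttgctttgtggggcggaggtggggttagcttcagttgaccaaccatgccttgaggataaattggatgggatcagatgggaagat
The FOS sequence held a TATA box whose first base lay 33 bases before the start. The JUN and ATF3 sequences each held TGACATCA, with its first base 67 and 123 bases before the start. The FOSL2 sequence held neither motif. Searched on both strands, TGACNTCA occurred in 6.87% and TATAAA in 10.7% of the 35116 promoter sequences of the same length in the table. The AP-1 site TGANTCA, which occurred in 6.57% of them, was in none of the 4 sequences. Such matches describe the letters of these windows only.

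The BRD9 libraries held 10.1 to 13.9 M reads and the SMARCB1 libraries 64.2 and 59.7 M reads. The BRD9 lists held between 35252 and 46448 peaks, and the SMARCB1 lists 133297 and 161710. All BRD9 lists were called against a control library of 23.1 M reads, and both SMARCB1 lists against one of 49.6 M reads. The deposited titles name GFP as the control of the SMARCB1 lists. Whether it is the SMARCB1 sample after GFP induction is not given in the sources used here. A list reports reads only inside its own peaks, so a place without a peak has no measured level. The 6 windows held 38, 47 and 45 BRD9 peaks after GFP induction and 41, 36 and 51 after SMARCB1 induction. The SMARCB1 lists held 120 and 121 peaks there. The total BRD9 peak number in the windows was therefore alike in range in the 2 groups, with 43.3 ± 4.73 and 42.7 ± 7.64 peaks per list (mean ± SD, n = 3 each), while the single genes differed from one another.

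BRD9 covered less of the FOS window and more of the ATF3, FOSL2 and JUN windows in SMARCB1-induced than in GFP-induced cells, with no overlap between the 3 lists of either group. JUNB and FOSL1 showed no such separation. Covered length, the base pairs of a window inside peaks of a list, was compared by a two-sided exact permutation test. For 3 lists against 3 its smallest possible p is 0.1. The same test was run on 17959 tiles of 100 kb across the genome, with Benjamini-Hochberg adjustment over the 17965 tiles and gene windows together. The smallest adjusted p that could be reached was then 0.314, so no locus could pass 0.05 on this measure. Across the tiles, 24.7% had a greater covered length in all 3 lists of SMARCB1-induced cells than in all 3 of GFP-induced cells, and 7.15% a smaller one. The members' counts were 3 of 6 in the first direction and 1 of 6 in the second. The gene windows are longer than a tile, at 102 to 155 kb, and are centred on genes, so the comparison is not like for like. The median tile differed by 0.113 kb.

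**Figure D1:**
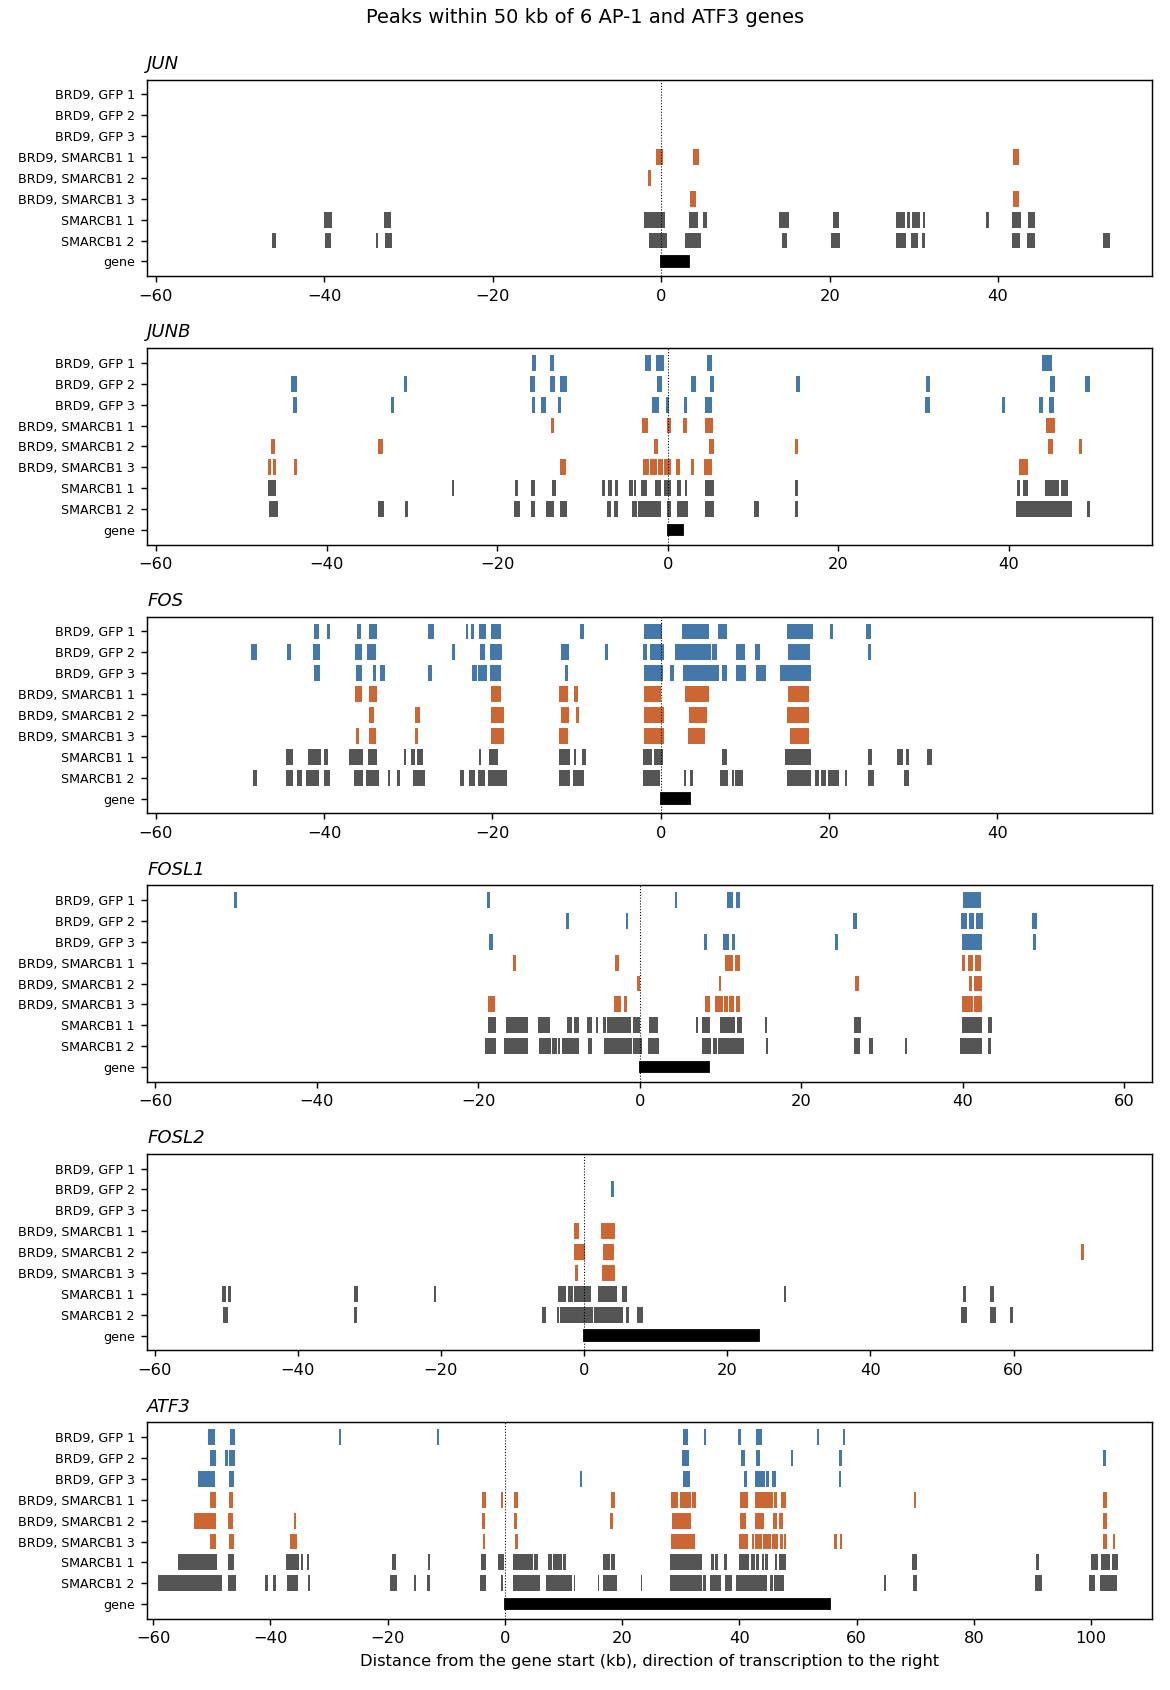
Peaks of the 8 lists within 50 kb of each gene, drawn by distance from the gene start in kb with transcription to the right; blue, BRD9 after GFP induction; orange, BRD9 after SMARCB1 induction; grey, SMARCB1; black bar, the gene. BRD9 after GFP induction has no peak around JUN and 1 around FOSL2, and has 16 to 18 peaks per list around FOS, where each list after SMARCB1 induction has 8.

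Of the JUN family, JUN encodes the main partner of FOS proteins in the AP-1 dimer. Its window held no BRD9 peak in any of the 3 lists of GFP-induced cells. After SMARCB1 induction it held 3, 1 and 2 peaks, which covered 2.29, 0.384 and 1.34 kb. The mean was 1.34 ± 0.954 kb (n = 3, exact permutation p = 0.1, adjusted p = 0.314). The peaks made 4 regions, all at places where SMARCB1 was called in both replicates, but none was present in all 3 lists. The region over the gene start, chr1:59249526-59250440, had a peak in replicate 1 alone, with 33 reads and a density of 2.97 RPKM (reads in the peak divided by its length in kilobases and by the M reads of the library), against 0.757 RPKM in the control library. A separate peak of 13 reads, at -1.55 to -1.17 kb from the start, was in replicate 2 alone. The regions at 3.46 to 4.51 kb, just beyond the gene's 3′ end, and at 41.7 to 42.5 kb were in replicates 1 and 3. These peaks held between 13 and 33 reads, where the median peak of a whole BRD9 list held 18 to 23.

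JUNB encodes a JUN protein with weaker activating capacity that can restrain JUN. Its window held 6, 12 and 13 BRD9 peaks covering 4.44, 6.51 and 6.44 kb after GFP induction. After SMARCB1 induction it held 6, 7 and 12 peaks covering 4.10, 3.34 and 7.20 kb. The groups overlapped, and their difference of -0.92 kb gave an exact permutation p of 0.6. The region just upstream of the gene, from -3.06 to -0.434 kb, had a peak in all 6 lists. Its density was 3.20, 2.09 and 2.72 RPKM in GFP-induced and 2.86, 3.57 and 2.56 RPKM in SMARCB1-induced cells. The region over the start itself, chr19:12901901-12902742, was called in GFP replicate 3 (3.63 RPKM) and in SMARCB1 replicates 1 and 3 (3.06 and 2.51 RPKM). The region of highest density among those in all 6 lists, chr19:12906601-12907735, had 3.16, 3.04 and 3.09 RPKM against 2.97, 4.09 and 3.77 RPKM. The groups thus overlapped in density on both sides of JUNB, while over the start 3 of the 6 lists had no peak. A single region, chr19:12886186-12886879, was held by all 3 lists of GFP-induced cells, at 4.10, 4.25 and 4.08 RPKM, and by none of SMARCB1-induced cells.

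FOS encodes the founding FOS protein, a partner of JUN. Its window had the most BRD9 peaks of the 6 after GFP induction, 16, 18 and 16 per list, covering 16.8, 19.3 and 20.02 kb. After SMARCB1 induction each of the 3 lists held 8 peaks, covering 11.9, 10.9 and 11.0 kb. Every list of GFP-induced cells lay above every list of SMARCB1-induced cells on both measures. Mean covered length was 18.7 ± 1.72 kb against 11.2 ± 0.545 kb (SD, n = 3 each), a difference of -7.47 kb (exact permutation p = 0.1, adjusted p = 0.314). Peak number differed by -8.67 (exact permutation p = 0.1, adjusted p = 0.401, again the smallest possible). It was lower in all 3 lists in 5.75% of tiles and higher in 19.1%. Reads inside the FOS peaks were 97.8 ± 13.7 per M library reads after GFP induction and 52.1 ± 4.36 after SMARCB1 induction.

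**Figure D2:**
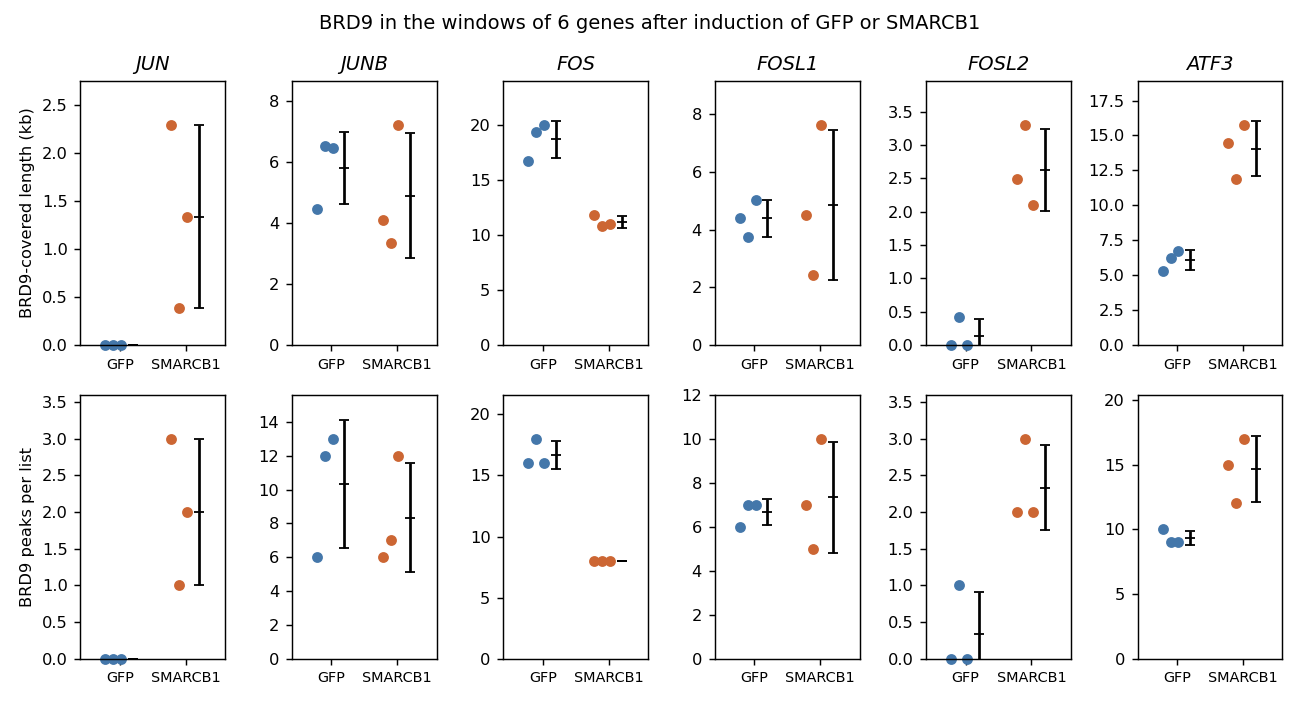
BRD9-covered length in kb (upper row) and BRD9 peaks per list (lower row) in the window of each gene; each coloured point is 1 list, and the black bar with caps is the mean ± SD of 3 lists, cut at 0. The groups do not overlap at JUN, FOS, FOSL2 and ATF3, where FOS is lower and the other 3 are higher after SMARCB1 induction, and they overlap at JUNB and FOSL1.

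At the FOS start the groups separated in density but not in width, and over the 3′ end in both. Some sites farther away also differed, as described below. Over the gene start BRD9 was called in all 6 lists, in the region chr14:75743372-75745879, which reaches from -2.11 to 0.398 kb. Density there was 6.57, 6.31 and 6.62 RPKM in GFP-induced cells and 3.64, 5.17 and 3.28 RPKM in SMARCB1-induced cells. The groups did not overlap, although the peaks were of like width, 2.22 ± 0.082 kb and 2.29 ± 0.145 kb. The log2 difference was -0.72 (exact permutation p = 0.1, the smallest possible). It was -0.55 relative to the median of the 5598 regions called in all 6 lists. Of those regions, 19.4% were lower in every list of SMARCB1-induced cells. The control library had 0.769 to 0.926 RPKM in the same peaks. A fit with limma on log2 RPKM over the 5598 regions called in all 6 lists, added after seeing the data, gave the start region an adjusted p of 0.0725. The limma adjusted p was 0.0147 without GFP replicate 2, and lay between 0.0635 and 0.431 when any other single list was left out. SMARCB1 was called over the FOS start in both of its replicates, at 1.52 and 1.59 RPKM, with 0.735 and 0.667 RPKM in the control.

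A wider BRD9 region followed over the 3′ end of FOS, chr14:75747207-75753426, from 1.73 to 7.95 kb, with the gene end at 3.46 kb. It was singled out after its values were seen. Its peaks had 4.83, 6.92 and 5.82 RPKM in GFP-induced cells and 3.15, 3.62 and 3.07 RPKM in SMARCB1-induced cells. They covered 4.22, 4.81 and 5.0 kb against 2.80, 2.10 and 2.06 kb. Density and width were therefore lower in every list of SMARCB1-induced cells, with 217, 403 and 297 reads against 107, 77 and 88. The log2 difference in density was -0.82 with a standard error of 0.18 (limma adjusted p = 0.0257), or -0.66 relative to the median region, which itself stood at -0.16. Of the 5598 regions, limma called 1.02% lower and 0.464% higher at an adjusted p under 0.05. The limma adjusted p was 0.104 without GFP replicate 3, 0.173 without SMARCB1 replicate 1, 0.0933 without SMARCB1 replicate 2 and 0.204 without SMARCB1 replicate 3. It was 0.00798 and 0.0111 without GFP replicates 1 and 2. Density is counted over each list's own peaks, and the control library stood at 0.320 to 0.368 RPKM in the peaks called after GFP induction and at 0.448 to 0.503 RPKM in those called after SMARCB1 induction. The only SMARCB1 region called in both replicates that it met lay at its far edge, from 7.09 to 7.99 kb, where no list of SMARCB1-induced cells had a BRD9 peak.

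**Figure D3:**
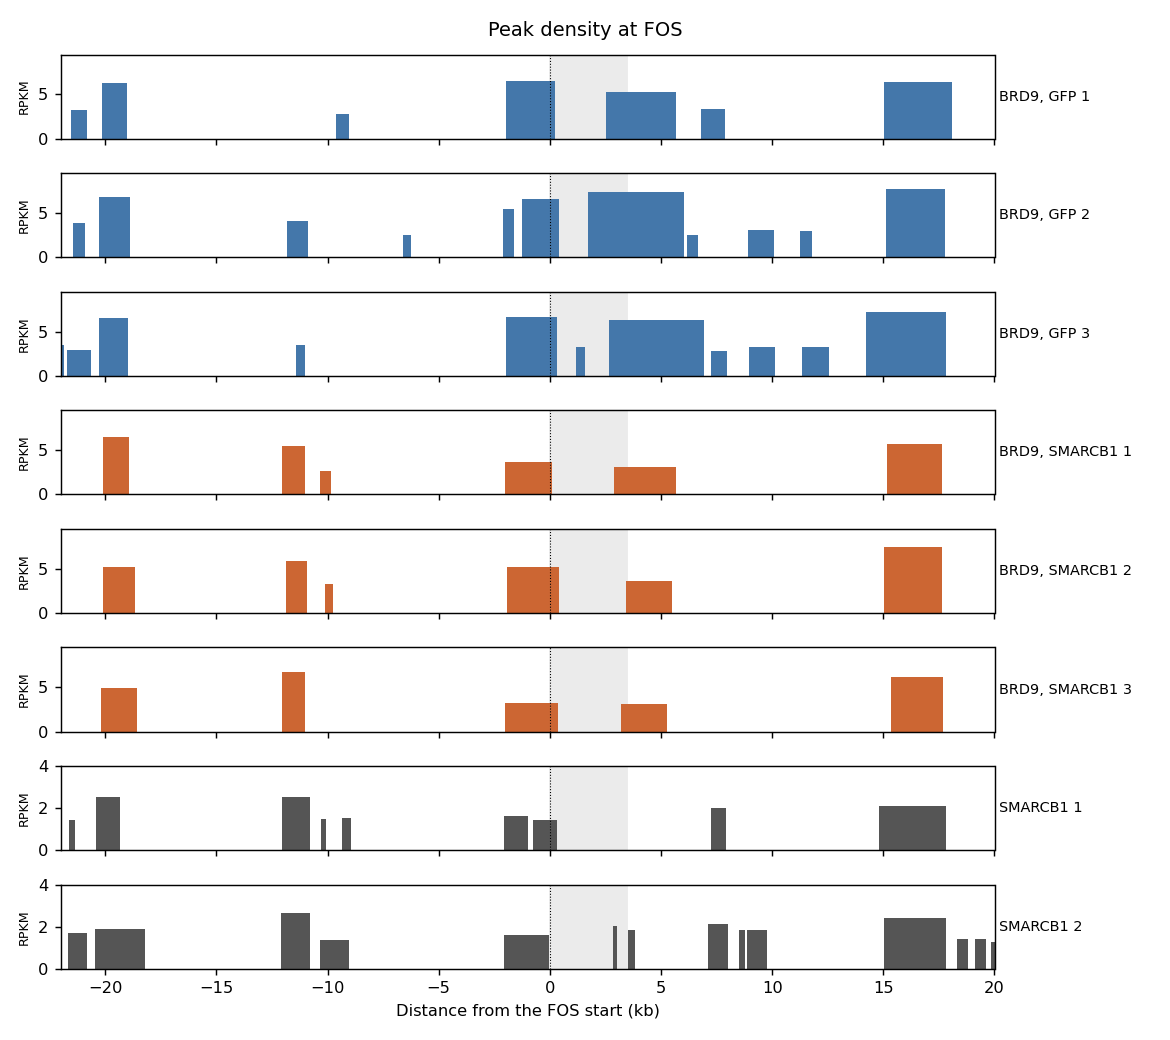
Peak density in RPKM around FOS by distance from the gene start in kb, 1 row per list, with the gene shaded grey; each block spans a peak and its height is the density of that peak, on a scale to 9.5 for BRD9 and to 4 for SMARCB1. In the region over the start, BRD9 density is 6.31 to 6.62 RPKM after GFP induction and 3.28 to 5.17 RPKM after SMARCB1 induction. The 6.31 RPKM of GFP replicate 2 joins 2 blocks, of 5.47 and 6.56 RPKM. The blocks beyond the 3′ end are narrower in the last 3 BRD9 rows.

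Farther from FOS, sites differed in direction. The regions at -41.3 to -40.4 kb, chr14:75704193-75705056, and at -21.7 to -20.6 kb, chr14:75723751-75724851, had a peak in every GFP list and in no list after SMARCB1 induction. Their densities were 2.99, 3.81 and 4.84 RPKM in the first and 3.24, 3.84 and 2.94 RPKM in the second. Both overlapped SMARCB1 regions. The region of highest density, chr14:75759701-75763574 at 14.2 to 18.1 kb, had 6.42, 7.72 and 7.20 RPKM in GFP-induced and 5.72, 7.44 and 6.19 RPKM in SMARCB1-induced cells, so the groups overlapped there. The most strongly marked SMARCB1 site of the window, at -12.1 to -10.8 kb with 2.54 and 2.64 RPKM, went the other way. BRD9 was called there in all 3 lists of SMARCB1-induced cells, at 5.45, 5.90 and 6.79 RPKM, and in GFP replicates 2 and 3 at 4.08 and 3.52 RPKM. Of the 26 BRD9 regions around FOS, 17 had peaks only in lists of GFP-induced cells, 2 only in lists of SMARCB1-induced cells, and 5 were in all 6 lists. A single list alone held 10 of the 26. The share of regions with peaks in only 1 group was not computed over all BRD9 regions, so the 17 and 2 have no base rate here.

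FOSL1 encodes FRA-1, a FOS protein without the strong activation domain of FOS that is often raised in invasive carcinoma cells. Its window held 6, 7 and 7 BRD9 peaks after GFP induction, covering 4.40, 3.75 and 5.02 kb. After SMARCB1 induction 7, 5 and 10 peaks covered 4.50, 2.44 and 7.63 kb. The lists after SMARCB1 induction lay on both sides of the others (difference 0.467 kb, exact permutation p = 0.8). The sign of this difference turned without SMARCB1 replicate 3, to -0.92 kb. Over the gene start, chr11:65668005-65668336, a peak of 10 reads and 2.98 RPKM was in SMARCB1 replicate 2 alone. The single region in all 6 lists, chr11:65625476-65628179, lay 39.9 to 42.6 kb from the start, beyond the 3′ end, with 3.07, 4.50 and 5.06 RPKM against 3.41, 3.83 and 3.35 RPKM. SMARCB1 itself was prominent near FOSL1, where 5 of its 14 regions called in both replicates lay within 2 kb of a gene end. The strongest of these, at -4.54 to -0.982 kb, had 2.04 and 2.22 RPKM, and BRD9 was called in it in 1 list of GFP-induced and 2 of SMARCB1-induced cells.

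FOSL2 encodes FRA-2, the second FOS-related antigen. Its window held a single BRD9 peak in GFP-induced cells, in replicate 2, and 2, 3 and 2 peaks in SMARCB1-induced cells. Covered length was 0, 0.425 and 0 kb against 2.49, 3.30 and 2.10 kb, a difference of 2.49 kb without overlap (exact permutation p = 0.1, adjusted p = 0.314). Reads in these peaks were 0.550 ± 0.953 per M against 9.83 ± 1.65 per M. The region over the start, chr2:28614406-28615904, from -1.37 to 0.125 kb, had a peak in all 3 lists after SMARCB1 induction and in none after GFP induction. Its density was 3.61, 3.09 and 3.23 RPKM, from 26, 47 and 18 reads, with 0.404 to 0.647 RPKM in the control. The SMARCB1 region around it measured 5050 bp and had 1.59 and 1.63 RPKM. A further BRD9 region inside the gene, at 2.40 to 4.29 kb, was singled out after its values were seen. It had 3.57, 4.16 and 4.46 RPKM over 1.89, 1.47 and 1.69 kb in SMARCB1-induced cells, and 3.89 RPKM over 0.425 kb in GFP replicate 2. It lay in the strongest SMARCB1 region of the window, at 1.32 to 6.25 kb with 2.03 and 1.84 RPKM. BRD9 at FOSL2 was thus recorded almost entirely in SMARCB1-induced cells, at the start and in the 5′ part of the gene.

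ATF3 had the widest window, since the gene is 55.4 kb long. BRD9 peaks numbered 10, 9 and 9 after GFP induction and 15, 12 and 17 after SMARCB1 induction. They covered 5.30, 6.21 and 6.71 kb against 14.5, 11.9 and 15.7 kb, so each list of SMARCB1-induced cells exceeded each of GFP-induced cells. The means were 6.08 ± 0.714 and 14.1 ± 1.96 kb, a difference of 7.98 kb (exact permutation p = 0.1, adjusted p = 0.314). Reads in peaks were 34.6 ± 11.7 and 69.6 ± 13.2 per M library reads. Peaks reaching past the window edge were counted whole here, while covered length took only their part inside the window. In SMARCB1 replicate 2 such a peak upstream, in the region at -53.6 to -49.3 kb, gave 30.9 reads per M. No BRD9 peak lay over the gene start. Within 2 kb of it there was no peak after GFP induction, and 2, 1 and 1 peaks per list after SMARCB1 induction. The gene start here is that of the hg19 coordinates. The second promoter entry of ATF3, chr1:212614768-212615017 on GRCh38.p14, lies inside the gene and was not placed on hg19. Peaks near it were therefore not counted as near a start. By the distance between the 2 entries on GRCh38.p14, the region at 46.7 to 48.0 kb described below reaches within 2 kb of it. So does a peak at 48.7 to 49.1 kb in GFP replicate 2 alone. Both were counted as interior.

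The 3 regions around ATF3 with a peak in all 3 lists after SMARCB1 induction and in none after GFP induction were spread over the locus. The first, chr1:212734750-212735501, lay upstream at -3.93 to -3.18 kb and had 3.05, 3.38 and 2.70 RPKM. The second, chr1:212740235-212740901, lay just inside the gene at 1.56 to 2.23 kb and had 2.90, 4.40 and 3.00 RPKM. The third, chr1:212785423-212786685, lay at 46.7 to 48.0 kb and had 3.04, 2.94 and 3.44 RPKM. The second stood in a SMARCB1 region of 4700 bp with 1.94 and 2.11 RPKM, and the first in one with 1.95 and 1.91 RPKM.

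The 3 regions inside ATF3 with a peak in all 6 lists accounted for 4.96 of the 7.98 kb by which mean covered length differed, by the sum of their mean widths. The region at 28.3 to 32.6 kb, chr1:212766951-212771252, singled out after its values were seen, covered 0.790, 1.25 and 1.14 kb in GFP-induced cells and 3.85, 3.33 and 3.997 kb in SMARCB1-induced cells. It held 3.58, 8.75 and 6.07 reads per M against 24.5, 21.2 and 20.4. Its density within the called peaks overlapped between groups, at 4.53, 6.99 and 5.31 RPKM against 6.36, 6.37 and 5.11 RPKM (limma adjusted p = 0.801). The groups thus separated in extent and reads and overlapped in density. The SMARCB1 region at this place measured 5525 bp and had 2.26 and 2.40 RPKM. The neighbouring region at 39.7 to 41.4 kb, likewise singled out afterwards, covered 0.459, 0.706 and 0.535 kb against 1.27, 1.096 and 1.48 kb. There the densities did not overlap either, at 3.49, 3.63 and 3.29 RPKM against 4.03, 5.13 and 3.90 RPKM (log2 difference 0.32, exact permutation p = 0.1, limma adjusted p = 0.371). In the third, at 42.6 to 46.55 kb, the widths of the groups overlapped, at 0.965, 0.739 and 2.87 kb against 3.55, 2.36 and 3.41 kb. Upstream, a region in all 6 lists at -47.2 to -46.1 kb covered 0.899 ± 0.085 kb in GFP-induced and 0.800 ± 0.124 kb in SMARCB1-induced cells. The region of highest density in the window, chr1:212685062-212689402, far upstream at -53.6 to -49.3 kb, had 6.94, 10.6 and 6.96 RPKM against 7.48, 8.03 and 6.42 RPKM, with overlapping groups. It lay in the SMARCB1 region of highest mean density at ATF3, which was also the widest of the 6 windows, 10425 bp with 2.30 and 2.67 RPKM.

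**Figure D4:**
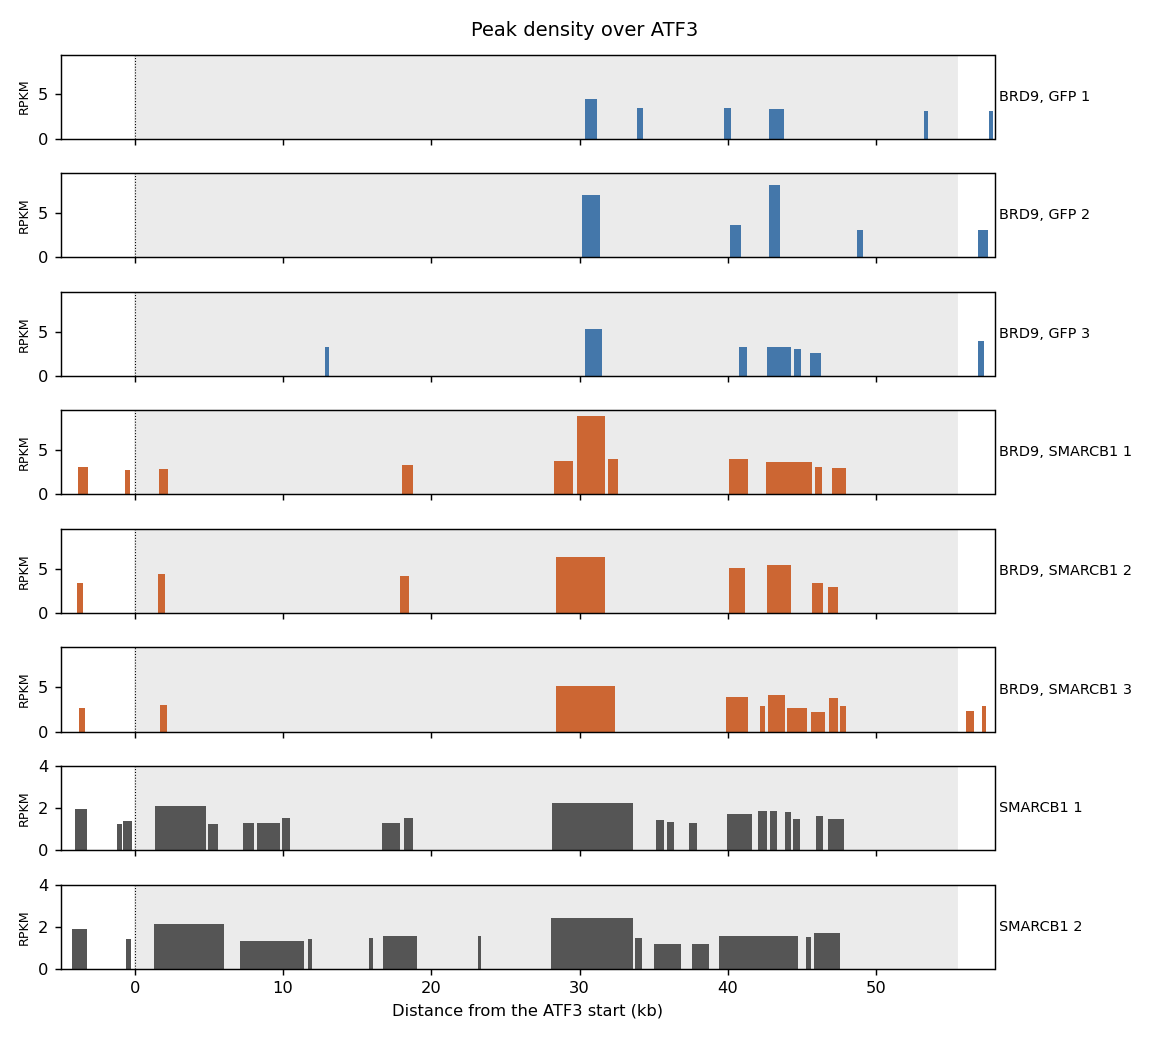
Peak density in RPKM over ATF3 by distance from the gene start in kb, 1 row per list, with the gene shaded grey; blocks span peaks and their height is the density, on a scale to 9.5 for BRD9 and to 4 for SMARCB1. In the rows of SMARCB1-induced cells the BRD9 blocks at 28.3 to 32.6 kb cover 3.33 to 3.997 kb, against 0.790 to 1.25 kb in GFP-induced cells.

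Over the 6 windows the BRD9 peaks of the 6 lists merged into 96 regions. Of these, 4 (4.17%) were held by all lists of SMARCB1-induced cells and none of GFP-induced cells, against 6.85% of all 119939 BRD9 regions. The opposite pattern was shown by 3 (3.13%, against 1.04%), and 13 (13.5%, against 4.67%) were in all 6 lists. The 4 regions of the first kind were 3 at ATF3 and 1 at FOSL2, and the 3 of the second kind were 2 at FOS and 1 at JUNB. All 7 overlapped a SMARCB1 region called in both replicates, whereas genome-wide this held for 95.9% of the first kind and 28.4% of the second. Single lists alone held 41 of the 96 regions. Among the 13 regions in all 6 lists, densities of the groups did not overlap in 3, of which 2 at FOS were lower and 1 at ATF3 higher after SMARCB1 induction. The median log2 difference was -0.15 over the 13 and -0.16 over all 5598 such regions, of which 19.4% were lower and 3.82% higher in every list of SMARCB1-induced cells.

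**Figure D5:**
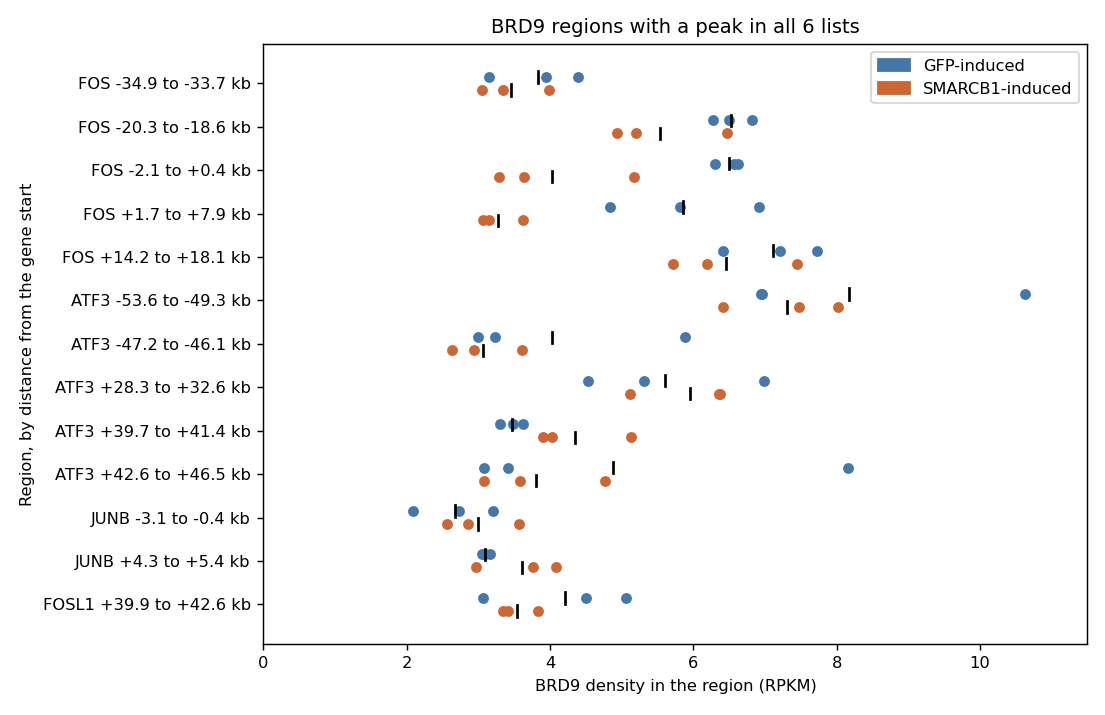
BRD9 density in RPKM of the 13 regions with a peak in all 6 lists, each named by its gene and its distance from the gene start; points are lists (blue, GFP-induced; orange, SMARCB1-induced) and short black lines are means of 3 lists. The points of the groups separate at the FOS start, at the FOS 3′ end and in ATF3 at 39.7 to 41.4 kb, and overlap in the other 10 regions.

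By position, 22 of the 96 regions lay within 2 kb of a gene end and 74 away from it. Near the ends, 2 regions were held by all lists of SMARCB1-induced cells and no list of GFP-induced cells, at FOSL2 and ATF3, and none showed the opposite pattern. Away from the ends the counts were 2 and 3. The ATF3 region at 46.7 to 48.0 kb, near the second promoter entry, was counted among these. Peaks near gene ends numbered 5, 7 and 9 per list after GFP induction (16.0 ± 3.56% of the peaks in the windows) and 9, 8 and 16 after SMARCB1 induction (25.2 ± 5.36%). At FOS 42 of 50 peaks in GFP-induced cells and 18 of 24 in SMARCB1-induced cells lay away from the ends, summed over 3 lists. At ATF3 the interior of the gene held 14 of 28 peaks in GFP-induced and 22 of 44 in SMARCB1-induced cells, counted in the same way.

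SMARCB1 was called in both replicates in 79 regions of the 6 windows, 15 of them near gene ends. They numbered 11 at JUN, 13 at JUNB, 15 at FOS, 14 at FOSL1, 6 at FOSL2 and 20 at ATF3, and covered 13.2, 18.1, 21.7, 23.7, 13.1 and 51.6 kb. These lengths sum whole regions, also where one reaches past the window edge, as at ATF3 from -59.1 to -48.7 kb. The strongest SMARCB1 site at JUN, 27.9 to 29.0 kb downstream with 2.14 and 1.57 RPKM, had no BRD9 peak in any list. The strongest at JUNB, at -14.2 to -13.1 kb, had 1.93 and 1.75 RPKM with 1.697 and 1.16 RPKM in the control. At these 79 sites, BRD9 was called only in lists of SMARCB1-induced cells in 14 and only in lists of GFP-induced cells in 8. Lists of both groups had a peak at 27, and no list had one at 30. In this order these were 17.7, 10.1, 34.2 and 37.97% of the sites. Over the 87773 SMARCB1 regions called in both replicates genome-wide the shares were 21.4, 4.63, 10.9 and 63.1%. FOS held 6 of the 8 and ATF3 held 6 of the 14.

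BRD9 peaks in the 6 windows lay at SMARCB1 regions in 68.4, 63.8 and 62.2% of cases in GFP-induced cells and in 97.6, 88.9 and 88.2% in SMARCB1-induced cells. The means were 64.8 ± 3.22% and 91.6 ± 5.21% (SD, n = 3 each), 26.7 points apart and without overlap. For whole lists the shares were 20.5, 41.7 and 29.4% against 57.1, 65.3 and 65.1%, so the windows stood above their list in each of the 6 lists. The windows are centred on genes and were not matched to the genome in SMARCB1 coverage, so this comparison is not like for like. The whole lists separated between the groups as well, with the higher shares after SMARCB1 induction. FOS showed the pattern within its smaller number of peaks, with 68.8, 61.1 and 56.3% at SMARCB1 regions after GFP induction and 87.5% in each list after SMARCB1 induction.

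Other protein-coding genes lay near some members, by the RefSeq annotation of GRCh38.p14. JUN, FOS and FOSL2 had none within 50 kb, and ATF3 had GARIN4. JUNB had 8, among them PRDX2 and RNASEH2A, and FOSL1 had 10, among them CFL1 and DRAP1. Peaks in the JUNB and FOSL1 windows can therefore not be assigned to a single gene by distance.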

How the data were processed

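The authors deposited separate peak lists for the samples and pooled no replicates. Each peak carries raw read counts, deposited for the sample and for its control library. The deposited RPKM values divide these counts by the peak length in kilobases and the library size in M reads. The authors' log2 fold difference of sample over control entered no result. Peaks within a list were ranked by the deposited −log10 FDR, the false discovery rate set by the authors. BWA 0.7.12-r1039, SAMtools, bedtools, DiffBind and edgeR are named without a role, per the submitters' processing notes. The peak caller is not given in the sources used here. The SMARCB1 lists are on hg19 with GFP as the negative control, per the deposited titles. The build and the control of the BRD9 lists are not named there.

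The genes, windows and lists were chosen with earlier results of these data known. Groups came from the labels. Peaks sharing at least 1 bp were merged into regions, over the 6 BRD9 lists or over both SMARCB1 lists, where a peak of each replicate was required. Peaks within 2 kb of a gene start or end counted as near. Named regions were those over gene starts, those held by 3 of 3 lists of a group and 0 of 3 of the other, the densest region in all 6 lists and the densest SMARCB1 region of each window. Other regions were chosen after their values were seen, also where this is not said beside them. Region density was the reads over a list's peaks in the region, per kilobase of those peaks and M library reads. Exact permutation tests used Python 3.11.15, and limma 3.58.1 in R 4.3.3 was applied to log2 RPKM with Benjamini-Hochberg adjustment. Both were tested on simulated data. As alternatives, only the better-scored peaks of each list were used, or equal list lengths, windows of 25 and 100 kb, other overlap and call rules, 1 and 5 kb around gene ends, lists with each replicate removed, and a replicate block. Reads per M and the limma fits were added after seeing the data. Promoters and neighbouring genes came from RefSeq tables of GRCh38.p14. An hg19 annotation was not used here, so other AP-1 genes were not examined.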

Additional observations from a re-analysis of the deposited data

How the results depend on the processing

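Exact permutation tests of 3 lists against 3 could not pass 0.05 under any alternative, so only directions and sizes are compared here. Covered length and peak number at JUN, JUNB, FOS, FOSL2 and ATF3 kept their direction in every alternative run. The difference at FOSL1 did not: covered length differed by -0.073 kb when only the better-scored peaks of each list were used, and reads per M, chosen after seeing the data, differed by -1.48. The separation of the lists was not kept throughout. The groups overlapped at JUN with the better-scored peaks (differences of 0.771 kb and 1 peak), and in peak number at FOS with windows of 100 kb (difference of -5.33). Regions held by all lists of SMARCB1-induced cells and none of GFP-induced cells numbered 9 with windows of 100 kb. With at least 2 of 3 lists required they numbered 13, and the opposite kind 10. The gap in the share at SMARCB1 regions was 19.98 points with SMARCB1 peaks of either replicate. Within 5 kb of gene ends there were 83 BRD9 peaks over all lists, against 54 within 2 kb. Leaving out each BRD9 replicate gave covered-length differences of 0.861 to 1.81 kb at JUN, -2.08 to -0.15 kb at JUNB, -8.44 to -6.81 kb at FOS, -0.92 to 1.68 kb at FOSL1, 2.15 to 2.75 kb at FOSL2 and 7.13 to 9.04 kb at ATF3. Peak number differed by 1.5 to 2.5, -4.17 to -0.67, -9 to -8, -0.67 to 1.83, 1.67 to 2.33 and 4.17 to 6.67 peaks in the same order. Regions of the first kind numbered 4 to 8 (8 without SMARCB1 replicate 1, 7 without replicate 2) and of the second 3 to 7 (7 without GFP replicate 1, 5 without replicate 2). The share differed by 23.7 to 28.5 points. The log2 difference in density was -0.91 to -0.58 at the FOS start and -0.96 to -0.70 at the FOS 3′ end, where the limma adjusted p was above 0.05 in 4 of 6 such fits. limma calls ranged from 0 to 183 higher and from 1 to 248 lower. Same-numbered lists did not all pair. Their deviations over 17959 tiles correlated at r = 0.70, 0.56 and -0.05, and those of differently numbered lists at r = -0.68 to 0.49. With a replicate block the differences were the same, the smallest possible p was 0.25, and limma called 58 higher and 134 lower against 26 and 57 without it. The block gave limma adjusted p-values of 0.0198 at the FOS start and 0.00436 at the FOS 3′ end. Peaks at JUN and at the FOSL1 start rested on 10 to 33 reads, and a missing peak does not show missing protein. All BRD9 lists share a control library, and antibody and depth differ between BRD9 and SMARCB1, so their numbers were set side by side and not compared.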
